A study of Ovis aries with 6 samples.

Results

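Among nuclei from the rumen wall of lambs, a population was defined by transcripts of RSPO3 or HHIP together with smooth muscle genes, and its working name is subepithelial myofibroblast. The nuclei were selected on measured transcripts. A nucleus had to hold at least 500 detected genes and at most 10% mitochondrial UMIs (unique molecular identifiers, each counting 1 captured RNA molecule). It had to show at least 1 UMI of at least 3 of the 7 genes RSPO3, HHIP, ACTG2, MYH11, MYOCD, ITGA8 and FGF10, with RSPO3 or HHIP among them. At most 1 of the 4 keratinocyte genes TP63, DSG1, DSC2 and COL17A1 was allowed, and the leukocyte gene PTPRC, the endothelial gene VWF and the pericyte gene KCNJ8 had to be at 0 UMIs. In all, 1145 of 40419 nuclei (2.83%) met these conditions, and they are called RSPO3/HHIP nuclei below. Nuclear RNA of the ventral part of the rumen was sequenced in droplets from 6 male lambs, 1 library per animal, 3 in a group called MGHS and 3 in a group called MGNS. The series concerns grazing sheep given supplementary feed, but what MGHS and MGNS stand for is not written in the labels, which give neither age nor breed. All 6 libraries share the sex, the tissue, which the labels call rumen epithelial, and freezing before nuclei were isolated. Fold changes are MGHS over MGNS.

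Myofibroblasts are stromal cells that carry smooth muscle contractile proteins, and in the gut wall of mice and humans they lie beneath the epithelium. Cells of this kind secrete signals to the epithelium above them, among them R-spondins, which strengthen Wnt signalling at the receptor, and fibroblast growth factors. The rumen lining is a stratified epithelium over a connective tissue core, and it absorbs the short-chain fatty acids made by fermentation.

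Between 8018 and 14366 matrix columns were present per library, with 34418856 to 59997793 UMIs. RSPO3/HHIP nuclei numbered 221, 245 and 315 in MGHS 1 to 3, against 69, 99 and 196 in MGNS 1 to 3. Their UMIs summed to 987855, 999002 and 1385370 in MGHS 1 to 3, against 386571, 470066 and 692610 in MGNS 1 to 3, so a gene at 10 CPM (a gene's UMIs per 1000000 UMIs of the summed nuclei) rested on few molecules in MGNS 1 and MGNS 2. The median RSPO3/HHIP nucleus held 3803 ± 229 UMIs in MGHS and 4337 ± 1069.6 UMIs in MGNS (SD, n = 3 animals each, two-sided exact permutation p = 0.6). Mitochondrial UMIs made up a median of 0.298 to 0.342% per MGHS animal and 0.175 to 0.280% per MGNS animal, without overlap (exact permutation p = 0.1, the smallest that 3 animals against 3 can give). Pairs of libraries shared 6 to 20 cell barcodes, and 0 of them were shared between RSPO3/HHIP nuclei.

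MGHS 3 stood apart from the other libraries. When the RSPO3/HHIP nuclei were clustered with the fibroblast and pericyte sets described below, 4068 nuclei in all, 14 clusters formed and 2 of them held 1014 (88.6%) of the RSPO3/HHIP nuclei. The larger, with 717 of them, took 183 and 202 from MGHS 1 and MGHS 2, 58, 90 and 179 from MGNS 1 to 3, and 5 from MGHS 3. The other, with 297, took 265 from MGHS 3 and between 2 and 17 from each of the other libraries. Its leading genes included KCNAB1, COL25A1, GRIN3A and SEMA3A beside ACTG2 and HHIP, while CNBD1, RALYL, NTNG1 and KCNMA1 were among those that led the larger cluster. Counts of genes that differed between MGHS and MGNS are therefore given with and without MGHS 3. A further cluster held 6 RSPO3/HHIP nuclei, all from MGHS 2, and its leading genes included SMYD1 and DES, both known from mature muscle. Another held 25, with 7, 6 and 8 from MGHS 1 to 3 and 0, 1 and 3 from MGNS 1 to 3. SAMD8, CRISP3 and PADI1 were among its leading genes, and PADI1 was also called higher in MGHS below. A cluster with 22 had the keratins KRT36 and KRT6A beside C1QC and CD74, and one with 8 had PROX1 and CCL21. The part of these nuclei in the results was not tested.

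The conditions acted unevenly across the libraries. Of 1916 nuclei with enough of the 7 genes, 771 were left out by the limits on other cell types, 421 of them with PTPRC, 383 with more than 1 keratinocyte gene, 107 with VWF and 78 with KCNJ8, and a nucleus could fail several limits. The limits removed 118 of 339, 74 of 319 and 275 of 590 nuclei in MGHS 1 to 3, against 65 of 134, 97 of 196 and 142 of 338 in MGNS 1 to 3. Of these, 58, 33 and 123 held PTPRC in MGHS 1 to 3, against 52, 70 and 85 in MGNS 1 to 3. At the threshold, the 160 nuclei with exactly 3 of the genes had 667 CPM of the smooth muscle actin ACTA2 and 283 CPM of the fibroblast receptor PDGFRA. The 173 nuclei just outside, with exactly 2 of the genes and otherwise eligible, had 169 CPM of ACTA2 and 425 CPM of PDGFRA. The 985 nuclei with 4 or more had 1650.2 CPM of ACTA2 and 18.6 CPM of PDGFRA. RSPO3 and HHIP were detected together in 633 RSPO3/HHIP nuclei (55.3%), RSPO3 alone in 349 and HHIP alone in 163. All 7 genes were detected in 161 nuclei, and neither ACTG2 nor MYH11 in 163.

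The secreted and signalling genes of the definition come first, as a description without tests, since they chose the nuclei. RSPO3, a secreted protein that keeps Wnt receptors on the cell surface, had 1026, 1359 and 1304 CPM in MGHS 1 to 3, against 1257, 906 and 1594 CPM in MGNS 1 to 3. HHIP, a membrane protein that binds Hedgehog ligands and dampens their signal, had 912, 568 and 913 CPM in MGHS 1 to 3, against 742, 306 and 677 CPM in MGNS 1 to 3. FGF10, a growth factor that acts on epithelial FGF receptors, had 2116, 1290.3 and 871 CPM in MGHS 1 to 3, against 1645, 1157 and 1568 CPM in MGNS 1 to 3. The groups overlapped for all 3 genes, and the lowest HHIP value was that of MGNS 2. ITGA8, the integrin subunit that pairs with ITGB1 and binds nephronectin, had 1068, 754 and 619 CPM in MGHS 1 to 3, against 636, 999.9 and 1708 CPM in MGNS 1 to 3, again with overlap.

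Of the contractile genes of the definition, ACTG2, the enteric smooth muscle actin, had 309, 227 and 493 CPM in MGHS 1 to 3, against 297, 353 and 211 CPM in MGNS 1 to 3. MYH11, the smooth muscle myosin heavy chain, had 990.0, 826 and 967 CPM in MGHS 1 to 3, against 1309, 1172 and 557 CPM in MGNS 1 to 3. Both overlapped between the groups. MYOCD, the coactivator that drives smooth muscle genes through the serum response factor, had 468, 508 and 448 CPM in MGHS 1 to 3, against 877, 921 and 924 CPM in MGNS 1 to 3. Every MGHS animal lay below every MGNS animal for MYOCD, and no test is given because MYOCD was used to choose the nuclei. It was 1 of the 7 genes without overlap, where 1622 of 8945 tested genes (18.1%) had none.

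**Figure D1:**
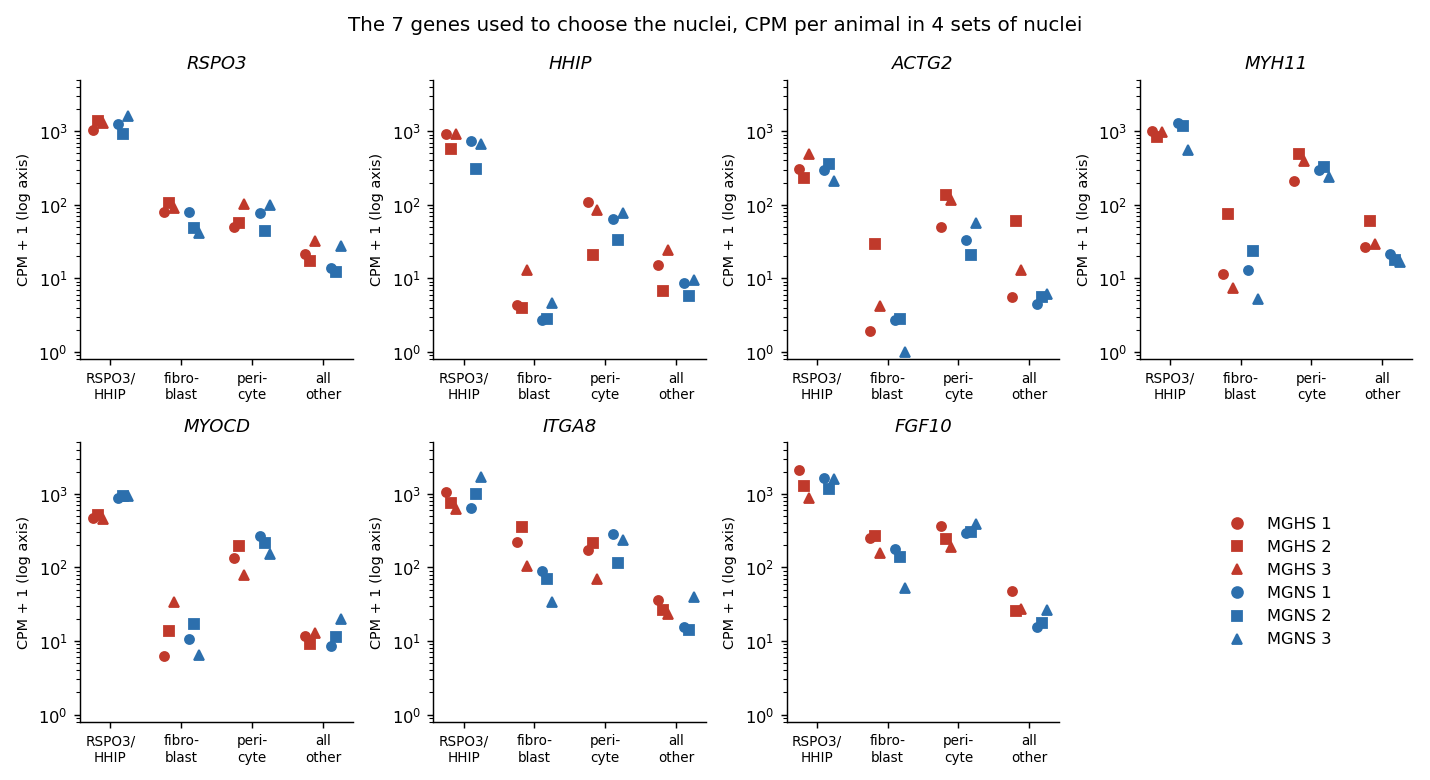
CPM plus 1 on a log axis for the 7 genes that chose the nuclei, with 1 point per animal (MGHS red, left; MGNS blue, right) in RSPO3/HHIP nuclei, the fibroblast set, the pericyte set and all other nuclei. Each gene is highest in RSPO3/HHIP nuclei, as the choice fixed. MYOCD is the gene whose groups do not overlap there, at 448 to 508 CPM in MGHS and 877 to 924 CPM in MGNS. Groups did not overlap for 18.1% of all tested genes.

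Genes that the definition did not use were compared with 2 other stromal sets and with all remaining nuclei. The fibroblast set (2179 nuclei) showed at least 2 of PDGFRA, LAMA2 and TWIST2, and the pericyte and vascular smooth muscle set, called the pericyte set (744 nuclei), at least 2 of KCNJ8, NOTCH3, RGS5, ABCC9, PDGFRB and MYH11, with KCNJ8, NOTCH3 or RGS5 among them. Both sets also had limits on keratinocyte, leukocyte and endothelial genes. These comparisons are descriptions, with no test, because transcripts of the same nuclei set the groups. A log2 ratio is the mean over 6 animals of RSPO3/HHIP nuclei over the other set, with 10 CPM added to each value and the SD over the animals. CPM is not scaled by gene length, so levels are compared within a gene only.

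The working name was compared with genes of smooth muscle, fibroblasts and pericytes. ACTA2 averaged 1498 ± 333 CPM in RSPO3/HHIP nuclei and 53.3 ± 38.3 CPM in the fibroblast set, and TAGLN, an actin-binding protein of smooth muscle, 858 ± 139 and 52.7 ± 35.8 CPM (SD, n = 6 animals). CNN1, a calponin of smooth muscle, averaged 111 ± 59.8 CPM in RSPO3/HHIP nuclei and 3.91 ± 4.32 CPM in the fibroblast set. DES, the intermediate filament of mature muscle, was low, with 0, 24.0 and 1.44 CPM in MGHS 1 to 3, against 20.7, 21.3 and 10.1 CPM in MGNS 1 to 3. PDGFRA averaged 50.0 ± 21.6 CPM in RSPO3/HHIP nuclei and 754 ± 185 CPM in the fibroblast set, which it helped to choose. RGS5, a pericyte gene, averaged 22.4 ± 33.3 CPM in RSPO3/HHIP nuclei and 1020.0 ± 169 CPM in the pericyte set. High smooth muscle transcripts thus go with the contractile part of the name. They are no independent check of it, because ACTG2, MYH11 and MYOCD helped to choose the nuclei. The position beneath the epithelium was not measured in isolated nuclei.

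Markers of other cell types were present at low levels. The summed level of 7 keratinocyte markers was 159.9 to 451 CPM in MGHS and 99.99 to 287 CPM in MGNS in RSPO3/HHIP nuclei, and 2751 to 3831 CPM in MGHS and 2277 to 2984 CPM in MGNS in all other nuclei. TP63, DSG1, DSC2 and COL17A1 are among these 7, and the definition limited them. The low sum in RSPO3/HHIP nuclei was thus partly fixed by the choice. The sum of 5 T or NK cell markers was 8.01 to 36.8 CPM in MGHS and 37.5 to 57.4 CPM in MGNS, with PTPRC at 0 by the definition. Blood endothelial markers summed to 32.4 to 57.02 CPM in MGHS and 15.5 to 40.4 CPM in MGNS, and macrophage markers to 2.02 to 13.7 CPM in MGHS and 2.13 to 13.0 CPM in MGNS. The endothelial sum includes VWF, which was also at 0 by the definition. Glial markers summed to 3.61 to 40.0 CPM in MGHS and 2.59 to 4.25 CPM in MGNS in RSPO3/HHIP nuclei and to 7.30 to 9.27 CPM in MGHS and 4.38 to 27.6 CPM in MGNS in all other nuclei, with the glial transcription factor SOX10 at 0 in every animal. The highest glial sum in RSPO3/HHIP nuclei was that of MGHS 2, above the sum in all other nuclei of each of the 6 animals. Keratinocyte sums overlapped between the groups, with the highest value in MGHS 3. The overlap rested on MGNS 1, where 147 of 287 CPM came from TP63, a transcription factor of basal keratinocytes. Of 5 keratinocyte markers with enough counts, 4 had a positive log2 fold change in RSPO3/HHIP nuclei, with a median of 1.26, and of 0.69 without MGHS 3. DSC2 and TP63, which the definition limited, were among the 5.

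RSPO3/HHIP nuclei carried the contractile programme at levels far above the fibroblast set. Of 37 measured genes of a contractile list, 16 were at least 4-fold higher on average and higher in all 6 animals, and 0 were 4-fold lower, where 111 of 10033 measured genes (1.11%) met the first condition. The list had a median log2 ratio of 1.72. RYR2, a calcium release channel, averaged 2667 against 42.8 CPM (log2 ratio 5.41 ± 1.08) in RSPO3/HHIP nuclei and the fibroblast set. For ACTA2 and TAGLN the log2 ratios were 4.79 ± 0.78 and 3.96 ± 0.71, and for KCNMA1, the calcium-activated potassium channel, 3.98 ± 1.03. DMD, which encodes dystrophin, had 3.81 ± 0.29, and FLNA, an actin crosslinker, 3.14 ± 0.36. These values place the contractile list well above the fibroblast level. Genes of this kind helped to choose the RSPO3/HHIP nuclei, although the choosing genes themselves are left out.

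Against the pericyte set the same list was close. Of 37 measured contractile genes, 1 was 4-fold higher in RSPO3/HHIP nuclei and 1 was 4-fold lower, where 107 of 10302 measured genes (1.04%) were 4-fold higher in all 6 animals, and the median log2 ratio was 0.44. KCNMA1 was the higher gene (776 against 180.5 CPM, log2 ratio 2.16 ± 1.11). PDE5A, which breaks down cyclic GMP, was the lower one (188 against 928 CPM, -2.27 ± 0.36), and PRKG1, the kinase that cyclic GMP activates, had -1.46 ± 0.15. ACTA2 stood at 1498 against 518 CPM (1.54 ± 0.34) and CALD1, an actin and myosin regulator, at 2834 against 3823 CPM (-0.44 ± 0.32). The pericyte list itself ran the other way, with 8 of 13 measured genes 4-fold lower in RSPO3/HHIP nuclei and a median log2 ratio of -2.48, where 194 of 10302 measured genes (1.88%) were 4-fold lower, leaving out the genes that chose the set. JAG1, a Notch ligand, averaged 32.4 against 339 CPM, and MEF2C, a muscle and endothelial transcription factor, 148 against 1301 CPM. TRPC6, a cation channel on that list, did not follow, at 1082 against 1261 CPM (-0.15 ± 1.29).

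**Figure D2:**
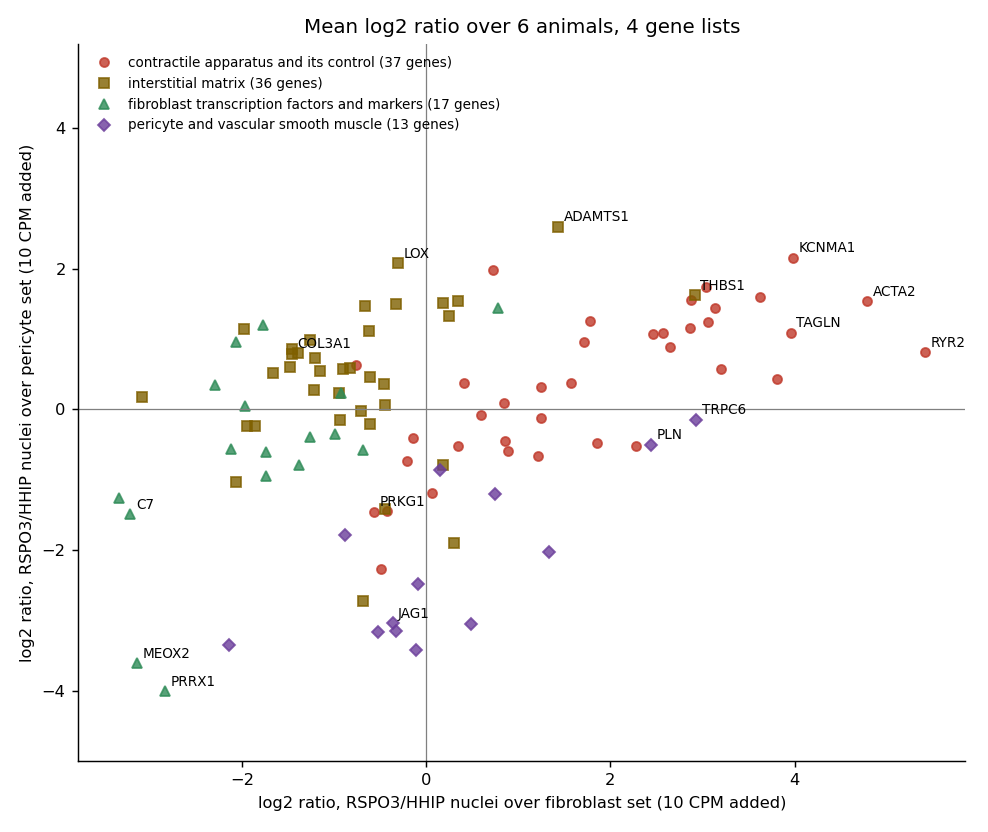
Mean log2 ratio over 6 animals of RSPO3/HHIP nuclei over the fibroblast set (horizontal) and over the pericyte set (vertical), 10 CPM added, with 1 point per gene of 4 lists and without the genes that chose any set. Contractile genes (red circles) spread to the right, up to 5.41 for RYR2, matrix genes (brown squares) lie mostly upper left, fibroblast genes (green triangles) mostly to the left, and pericyte genes (purple diamonds) mostly in the lower part.

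Genes outside the contractile list were highest against one or both sets. Over the fibroblast set the largest log2 ratio was that of KCNAB1, a potassium channel subunit, at 1411 against 18.7 CPM (5.61 ± 0.73). PRUNE2 (489.7 against 9.35 CPM), HS6ST3, a heparan sulfate sulfotransferase (458 against 6.41 CPM), ADAMTS6, a metalloprotease (1128 against 47.2 CPM), and PDZRN4 (616 against 30.3 CPM) were among the 15 named by their ratio. Others of the 15 are given next, not in order of rank. MAP2, a microtubule protein of dendrites, averaged 2787 against 151 CPM, and CNTNAP2, a cell adhesion protein of axons, 3884 against 291 CPM in RSPO3/HHIP nuclei and the fibroblast set. NTNG1, a membrane-anchored netrin, averaged 557 against 16.5 CPM, and RALYL, an RNA-binding protein, 689 against 22.6 CPM. CNBD1 averaged 778 against 18.7 CPM. All of these were higher in RSPO3/HHIP nuclei in 6 of 6 animals, which was a condition for being among the 15. MGHS 3 was lowest of the 6 for CNBD1, with 343 CPM, and highest for KCNAB1, with 2149.6 CPM.

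Of the 15 genes named by their ratio over the pericyte set, TNC, the matrix glycoprotein tenascin C, averaged 2034 against 166 CPM (log2 ratio 3.65 ± 1.02) in RSPO3/HHIP nuclei and the pericyte set, and THBS4, a thrombospondin, 857 against 57.7 CPM (3.72 ± 0.59). CCN1, a matrix-associated signalling protein, averaged 1035 against 110.1 CPM, MMP16, a membrane metalloprotease, 2625 against 162 CPM, and CPA6, a carboxypeptidase, 487 against 24.2 CPM. The guidance cues SEMA3A (254 against 9.80 CPM), SEMA3D (480.2 against 36.6 CPM) and NTN1 (610.3 against 60.2 CPM) were on the same list, as was ISM1, a secreted protein (1082 against 121 CPM). The collagen-like COL25A1 averaged 252 against 2.32 CPM and had 338, 234 and 411 CPM in MGHS 1 to 3, against 445, 74.5 and 10.1 CPM in MGNS 1 to 3 in RSPO3/HHIP nuclei. PCDH11X, a protocadherin, averaged 256 against 7.75 CPM and had 7.94 CPM in MGHS 3. NR4A1, an immediate early nuclear receptor, averaged 409.7 against 36.4 CPM. CNBD1, CNTNAP2 and RALYL led here too, with log2 ratios of 4.83 ± 1.53, 3.78 ± 0.59 and 3.701 ± 0.82.

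Genes named because they were lowest against a set, chosen after their values were seen, came from both comparison populations. EBF1, a transcription factor of stromal and B cells, averaged 112 against 1450.3 CPM in RSPO3/HHIP nuclei and the fibroblast set, and 5826 CPM in the pericyte set. CTNNA3, an alpha catenin, averaged 50.6 against 4401 CPM in RSPO3/HHIP nuclei and the pericyte set, and ADGRL3, an adhesion receptor, 21.2 against 1633 CPM. ABI3BP, a matrix protein, averaged 198 against 1775 CPM in RSPO3/HHIP nuclei and the fibroblast set, and DKK2, a secreted Wnt antagonist, 44.9 against 426 CPM.

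Interstitial matrix genes had medians between the 2 sets. Of 36 measured genes the median log2 ratio was -0.77 over the fibroblast set and, of 35, 0.57 over the pericyte set. COL3A1, a fibrillar collagen, averaged 2042 CPM in RSPO3/HHIP nuclei, 5663 CPM in the fibroblast set and 1204 CPM in the pericyte set. COL12A1, a fibril-associated collagen, averaged 1945, 2456 and 682 CPM in that order, and DCN, a small proteoglycan, 1534, 2352 and 534 CPM. THBS1, thrombospondin 1, was at 1534, 177 and 469.5 CPM. Against the fibroblast set 1 matrix gene was 4-fold higher (THBS1) and 2 were 4-fold lower, VCAN, a large proteoglycan (77.3 against 672 CPM), and FBLN5, a fibulin of elastic fibres (41.8 against 204 CPM). Against the pericyte set 2 were 4-fold higher, LOX (147 against 26.0 CPM) and ADAMTS1 (612 against 86.2 CPM), and 1 was 4-fold lower, ADAMTS9 (26.8 against 247 CPM). Over all measured genes, 1.11% were 4-fold higher and 1.16% lower against the fibroblast set. Against the pericyte set these shares were 1.04% and 1.88%. Of 17 measured fibroblast transcription factors and markers, 7 were 4-fold lower in RSPO3/HHIP nuclei than in the fibroblast set and 0 higher, where 116 of 10033 measured genes (1.16%) were 4-fold lower. Genes of this kind helped to choose the fibroblast set, although the choosing genes themselves are left out. The complement gene C7 averaged 51.9 against 606 CPM and PDPN, which encodes podoplanin, 44.4 against 182 CPM. Basement membrane genes and matrix receptors differed little from the fibroblast set (median log2 ratio 0.015 over 22 genes), with ITGB1, the partner of ITGA8, at 592 against 255 CPM and LAMA4, a laminin chain, at 578 against 410.2 CPM.

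Among the signalling lists, Wnt genes had a median log2 ratio of 0.17 over the fibroblast set for 24 measured genes and 0.63 over the pericyte set for 23. RSPO2, a relative of RSPO3, averaged 50.4 CPM in RSPO3/HHIP nuclei, 5.23 CPM in the fibroblast set and 13.9 CPM in the pericyte set. DAAM2, a formin in Wnt signalling, averaged 1190.2, 296 and 310.5 CPM, and was the 1 Wnt gene 4-fold above the fibroblast set. A further 3 were 4-fold below it, DKK2, given above, SFRP1, a secreted Wnt antagonist (12.1 against 107 CPM), and WNT5B, a ligand (2.64 against 49.4 CPM), against 1.16% of all measured genes. Over the pericyte set 0 Wnt genes were 4-fold higher and 0 were 4-fold lower. WNT5A, a ligand of beta-catenin-independent signalling, averaged 82.8, 54.2 and 20.4 CPM. The receptor genes ROR1 and ROR2 averaged 775 against 729 CPM and 609.9 against 518 CPM in RSPO3/HHIP nuclei and the fibroblast set, and TCF7L2, a transcription factor of the pathway, 617 against 561 CPM.

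Hedgehog response genes were close to the fibroblast level, with a median log2 ratio of 0.056 over 11 measured genes. GLI3, a transcription factor of the pathway, averaged 602 against 756 CPM in RSPO3/HHIP nuclei and the fibroblast set, and PTCH1, the Hedgehog receptor and a target gene, 66.7 against 69.4 CPM. The coreceptor gene BOC averaged 239.6 against 88.2 CPM (1.33 ± 0.28), and GAS1, another coreceptor, 104 against 36.2 CPM. Of the BMP and TGF-beta list, GREM1, a secreted BMP antagonist, averaged 1443 CPM in RSPO3/HHIP nuclei, 538 CPM in the fibroblast set and 217 CPM in the pericyte set. LTBP1, which stores latent TGF-beta, averaged 681, 613 and 105 CPM in that order.

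Receptors for neural and hormonal inputs were present. CHRM3, the muscarinic acetylcholine receptor of smooth muscle, averaged 379 against 9.82 CPM in RSPO3/HHIP nuclei and the fibroblast set, with 48.9 CPM in MGNS 2 the lowest and 796 CPM in MGNS 3 the highest of the 6 animals. PTGER3, a prostaglandin E2 receptor, averaged 1286 against 691 CPM, EDNRA, an endothelin receptor, 861 against 243 CPM, VIPR2, a receptor for vasoactive intestinal peptide, 191 against 83.9 CPM, and ADRA1A, an adrenergic receptor, 537 against 224 CPM. Over the pericyte set the log2 ratios were 2.98 ± 1.27 for CHRM3, 2.47 ± 0.7998 for PTGER3 and 2.34 ± 0.49 for VIPR2, each higher in 6 of 6 animals. The list of neural inputs and interstitial cells of Cajal had a median log2 ratio of 0.23 there. Of its 10 measured genes, 3 were 4-fold higher and 2 were 4-fold lower than in the pericyte set. ANO1, a chloride channel that marks interstitial cells of Cajal, averaged 39.3 against 8.16 CPM in RSPO3/HHIP nuclei and the fibroblast set and 199 CPM in the pericyte set. Of 25 measured growth factor and receptor genes, 3 were 4-fold higher than in the fibroblast set and 4 were 4-fold lower. Of 26 measured against the pericyte set 3 were 4-fold higher and 7 were 4-fold lower. Over all measured genes, 1.11% were 4-fold higher and 1.16% lower against the fibroblast set. Against the pericyte set these shares were 1.04% and 1.88%. HGF, a growth factor for epithelial cells, averaged 22.8 CPM in RSPO3/HHIP nuclei, 244 CPM in the fibroblast set and 395 CPM in the pericyte set, and KITLG, the ligand of KIT, 13.6, 106 and 111 CPM. The list had a median log2 ratio of 0.039 over the fibroblast set, with SEMA3C at 915 against 413 CPM, ANGPT1, a ligand for endothelial TIE2, at 601 against 497 CPM, and IGF1R, the insulin-like growth factor receptor, at 1015 against 990.4 CPM.

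The share of RSPO3/HHIP nuclei was higher in every MGHS animal than in every MGNS animal. They made up 3.89, 3.86 and 3.63% of nuclei in MGHS 1 to 3, against 1.48, 1.25 and 2.75% in MGNS 1 to 3. The means were 3.79 ± 0.140% in MGHS and 1.83 ± 0.806% in MGNS (SD, n = 3 animals each), and the two-sided exact permutation test gave p = 0.1, the smallest possible, so the threshold of 0.05 could not be reached. As a share of the 3 stromal sets together, which leaves out keratinocyte and immune nuclei, they made up 29.5, 31.2 and 34.3% in MGHS 1 to 3, against 21.6, 22.9 and 22.8% in MGNS 1 to 3. The means were 31.6 ± 2.44% in MGHS and 22.4 ± 0.742% in MGNS, again with exact permutation p = 0.1. Without MGHS 3 the MGHS mean was 3.87% of nuclei and 30.3% of the stromal sets. A share can move because other nuclei became fewer, which cannot be told apart here from more RSPO3/HHIP nuclei in the tissue. A further setting, the 7 genes alone without the limits on other cell types, was added after seeing the data. The shares then averaged 5.93% in MGHS and 3.36% in MGNS and still did not overlap. The nearest animals were MGHS 2 at 5.02% and MGNS 3 at 4.74%.

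**Figure D3:**
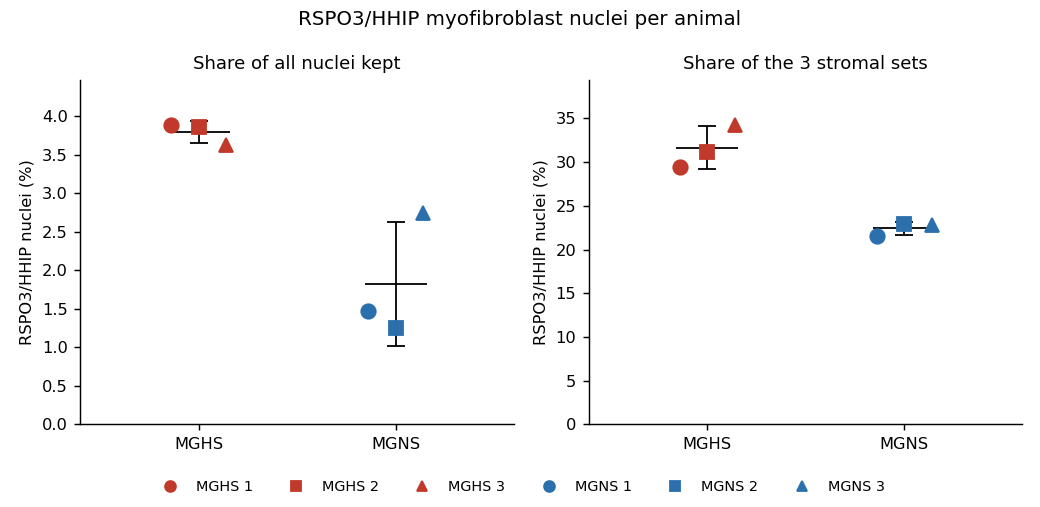
RSPO3/HHIP nuclei per animal as a percent of all nuclei kept (left) and of the 3 stromal sets (right), with a black line for the group mean and whiskers for the SD over 3 animals. All 3 MGHS animals lie above all 3 MGNS animals in both panels, at 3.63 to 3.89% against 1.25 to 2.75% on the left.

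Within RSPO3/HHIP nuclei, UMIs were summed per animal and MGHS was compared with MGNS. C3 and RELB were among the genes that fell in MGHS, and KRT80 and NEDD4L among those that rose. edgeR called 33 of 8945 tested genes at an adjusted p under 0.05 (0.369%), 17 higher and 16 lower in MGHS. DESeq2 called 158, 98 higher and 60 lower, and limma with voom 39, 17 higher and 22 lower. At an unadjusted p under 0.05 there were 1077 genes (12.0%), and for 1622 genes (18.1%) the groups of animals did not overlap. The animals of the groups did not overlap for any of the 33 called genes. Without MGHS 3 edgeR called 0 of 8566 genes (859, or 10.0%, reached an unadjusted p under 0.05, and the lowest adjusted p was 0.0838), and DESeq2 and limma were not run there. The log2 fold changes stayed close, as for C3 at -1.88 (adjusted p = 0.0838) and KRT80 at 3.33 (adjusted p = 0.0838) without MGHS 3. The count was 2 without MGHS 1, 11 without MGNS 2 and 18 without MGHS 2. With nuclei thinned to 1500 UMIs each, an alternative chosen after seeing the data, 0 of 5292 genes passed by edgeR, and 530 had an unadjusted p under 0.05. With Scrublet doublets removed, edgeR called 10 of 8440 genes, 2 higher and 8 lower.

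The genes that fell included C3 and C1R. C3, the central complement component, had 97.2, 85.1 and 100.3 CPM in MGHS 1 to 3, against 235, 385 and 399.9 CPM in MGNS 1 to 3 (log2 fold change -1.85 ± 0.24 SE, edgeR adjusted p = 0.0228). C1R, a protease that starts the classical complement pathway, had 121, 120.1 and 102 CPM in MGHS 1 to 3, against 225, 311 and 269 CPM in MGNS 1 to 3 (log2 fold change -1.22 ± 0.203 SE, edgeR adjusted p = 0.0412). RELB, an NF-kB subunit, had 14.2, 9.01 and 15.9 CPM in MGHS 1 to 3, against 44.0, 63.8 and 69.3 CPM in MGNS 1 to 3 (log2 fold change -2.17 ± 0.33 SE, edgeR adjusted p = 0.026). Each MGHS animal lay below each MGNS animal for these genes. IL4R, the interleukin 4 receptor subunit, had 27.3, 47.0 and 36.1 CPM in MGHS 1 to 3, against 106, 123 and 108 CPM in MGNS 1 to 3 (log2 fold change -1.61 ± 0.25 SE, edgeR adjusted p = 0.033). OSMR, the oncostatin M receptor, had 88.1, 101 and 62.8 CPM in MGHS 1 to 3, against 225, 194 and 221 CPM in MGNS 1 to 3 (log2 fold change -1.34 ± 0.23 SE, edgeR adjusted p = 0.0412). IL15RA, the interleukin 15 receptor subunit, had 25.3, 22.0 and 21.7 CPM in MGHS 1 to 3, against 82.8, 123 and 60.6 CPM in MGNS 1 to 3 (log2 fold change -1.93 ± 0.31 SE, edgeR adjusted p = 0.0371). The MGHS values of these receptor genes again lay below every MGNS value.

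CCL20, a chemokine for lymphocytes and dendritic cells, had 2.02, 2.00 and 2.17 CPM in MGHS 1 to 3, against 31.0, 21.3 and 104 CPM in MGNS 1 to 3 (log2 fold change -4.62, edgeR adjusted p = 0.0371), and its MGHS values rested on few molecules. ADAM19, a membrane metalloprotease, had 180.2, 214 and 167 CPM in MGHS 1 to 3, against 504, 506 and 599 CPM in MGNS 1 to 3 (log2 fold change -1.52 ± 0.21 SE, edgeR adjusted p = 0.0259). ACSL4, an acyl-CoA synthetase for arachidonic acid, had 55.7, 59.1 and 58.5 CPM in MGHS 1 to 3, against 127, 229.8 and 179 CPM in MGNS 1 to 3 (log2 fold change -1.63, edgeR adjusted p = 0.0259). For all 3 genes the animals of the groups did not overlap. BACH1, a repressor of antioxidant genes, fell as well (log2 fold change -1.796 ± 0.26 SE, edgeR adjusted p = 0.0259), as did STK38L, a kinase of the NDR family (log2 fold change -1.46 ± 0.23 SE, edgeR adjusted p = 0.033). STK38L had 706, 629 and 502 CPM in MGHS 1 to 3, against 1531, 1734 and 1819 CPM in MGNS 1 to 3, and it averaged 125 CPM in the fibroblast set and 220.1 CPM in the pericyte set. Of the 16 lower genes, 15 of 16 tested had a negative log2 fold change in the fibroblast set too, and 13 of 13 tested in the pericyte set. How often signs matched between sets over all tested genes was not counted. T or NK cell markers, whose sum in RSPO3/HHIP nuclei was 8.01 to 36.8 CPM in MGHS and 37.5 to 57.4 CPM in MGNS, lay lower in MGHS without overlap, and in all other nuclei that sum was 771 to 1291 CPM in MGHS and 1469 to 2552 CPM in MGNS. Their part in the result was not tested.

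A list of 25 cytokine and immune signal genes of the stroma leaned the same way. Of 16 tested genes, 2 fell (RELB and OSMR) and 0 rose, against 0.369% of all tested genes called in either direction. At an unadjusted p under 0.05, 10 were lower and 1 higher, against 12.0% of all tested genes, and the median log2 fold change was -1.04, against 0.014 over all genes. Without MGHS 3 these counts were 10 and 0, with a median of -1.15. STAT3, a transcription factor downstream of many cytokine receptors, had 104, 148 and 150.1 CPM in MGHS 1 to 3, against 264, 334 and 295 CPM in MGNS 1 to 3 (log2 fold change -1.15 ± 0.21 SE, edgeR adjusted p = 0.057). IL1R1, the interleukin 1 receptor, had 60.7, 57.1 and 41.1 CPM in MGHS 1 to 3, against 129, 108 and 160.3 CPM in MGNS 1 to 3 (log2 fold change -1.33 ± 0.25 SE, edgeR adjusted p = 0.057). Neither of the last pair passed the threshold. NFKB1 and IL6ST, the most abundant genes of the list, had log2 fold changes of -0.81 (adjusted p = 0.189) and 0.14 (adjusted p = 0.861) by edgeR.

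The genes that rose were mostly more abundant in other nuclei of the same tissue. Of the 17, 15 were higher in all other nuclei than in RSPO3/HHIP nuclei in every animal, against 1 of the 16 lower genes. The share over all tested genes was not counted. KRT80, an epithelial keratin, had 41.5, 37.0 and 52.0 CPM in MGHS 1 to 3, against 2.59, 2.13 and 5.78 CPM in MGNS 1 to 3 (log2 fold change 3.47 ± 0.44 SE, edgeR adjusted p = 0.0228). In all other nuclei it averaged 137 CPM in MGHS and 49.3 CPM in MGNS. FAM83B, a signalling adaptor, had 174, 135 and 223 CPM in MGHS 1 to 3, against 25.9, 14.9 and 46.2 CPM in MGNS 1 to 3 (log2 fold change 2.55 ± 0.35 SE, edgeR adjusted p = 0.0259), and 680.0 CPM in MGHS and 352 CPM in MGNS in all other nuclei. HOPX, a homeodomain cofactor, had 77.9, 119 and 118 CPM in MGHS 1 to 3, against 5.17, 8.51 and 24.5 CPM in MGNS 1 to 3 (log2 fold change 2.89). In each case the MGHS animals lay above the MGNS animals in RSPO3/HHIP nuclei.

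NEDD4L, a ubiquitin ligase that limits the epithelial sodium channel, had 239.9, 197 and 224 CPM in MGHS 1 to 3, against 54.3, 70.2 and 57.8 CPM in MGNS 1 to 3 (log2 fold change 1.86 ± 0.21 SE, edgeR adjusted p = 0.0228). CTSA, a lysosomal carboxypeptidase, had 127, 145 and 149 CPM in MGHS 1 to 3, against 20.7, 40.4 and 33.2 CPM in MGNS 1 to 3 (log2 fold change 2.13 ± 0.25 SE, edgeR adjusted p = 0.0228). WIPI2, an autophagy protein, had 119, 129 and 144 CPM in MGHS 1 to 3, against 44.0, 40.4 and 52.0 CPM in MGNS 1 to 3 (log2 fold change 1.52). All 3 were above MGNS in every MGHS animal. ENDOU, ABCB1, an efflux pump, and HERC4, a ubiquitin ligase, had log2 fold changes of 2.09, 3.16 and 1.404 (edgeR adjusted p = 0.0259, 0.0259 and 0.0259 in that order). CCDC102B was the named exception to the pattern of abundance, with 94.1, 95.1 and 97.4 CPM in MGHS 1 to 3, against 31.0, 14.9 and 26.0 CPM in MGNS 1 to 3 in RSPO3/HHIP nuclei and 31.0 CPM in all other nuclei, while the fibroblast set averaged 795 CPM (log2 fold change 1.998 ± 0.29 SE, edgeR adjusted p = 0.0259). All 17 had a positive log2 fold change in the fibroblast set, and 15 of 15 tested in the pericyte set, again without a count over all tested genes. Keratinocyte markers summed to 159.9 to 451 CPM in MGHS and 99.99 to 287 CPM in MGNS in RSPO3/HHIP nuclei, and with nuclei limited to 0 of the 4 keratinocyte genes edgeR called 4 of 7763 genes, 1 higher and 3 lower.

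Most of the higher genes still tested had a smaller fold where nuclei or UMIs were removed. With Scrublet doublets removed, 2 of the 13 higher genes still tested were called, and 10 had a fold more than 1.5 times smaller, against 7 called and 0 smaller of 15 lower genes. That setting took out 50 of the 1145 RSPO3/HHIP nuclei, 13, 7 and 19 in MGHS 1 to 3, against 0, 6 and 5 in MGNS 1 to 3. With 0 keratinocyte genes allowed, 9 of 14 higher genes and 0 of 15 lower genes were smaller by that much, and with thinning 9 of 13 and 0 of 11. KRT80 was no longer tested in any of these settings, nor was HOPX with doublets removed, so their folds there are not known. Of the genes named above, WIPI2 had a log2 fold change of 0.35 with doublets removed, 0.63 with 0 keratinocyte genes and 0.31 with thinning (edgeR adjusted p = 0.71, 0.55 and 0.82). With doublets removed NEDD4L had 0.64, CTSA 0.9001, ENDOU 1.04, HERC4 0.42 and FAM83B 1.54 (adjusted p between 0.408 and 0.647). With 0 keratinocyte genes ABCB1 had 1.47 (adjusted p = 0.467) and HERC4 0.66 (adjusted p = 0.429). CCDC102B stayed at 1.85 with doublets removed (adjusted p = 0.0491). Whether doublets or keratinocyte RNA gave the higher genes their levels was not tested.

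**Figure D4:**
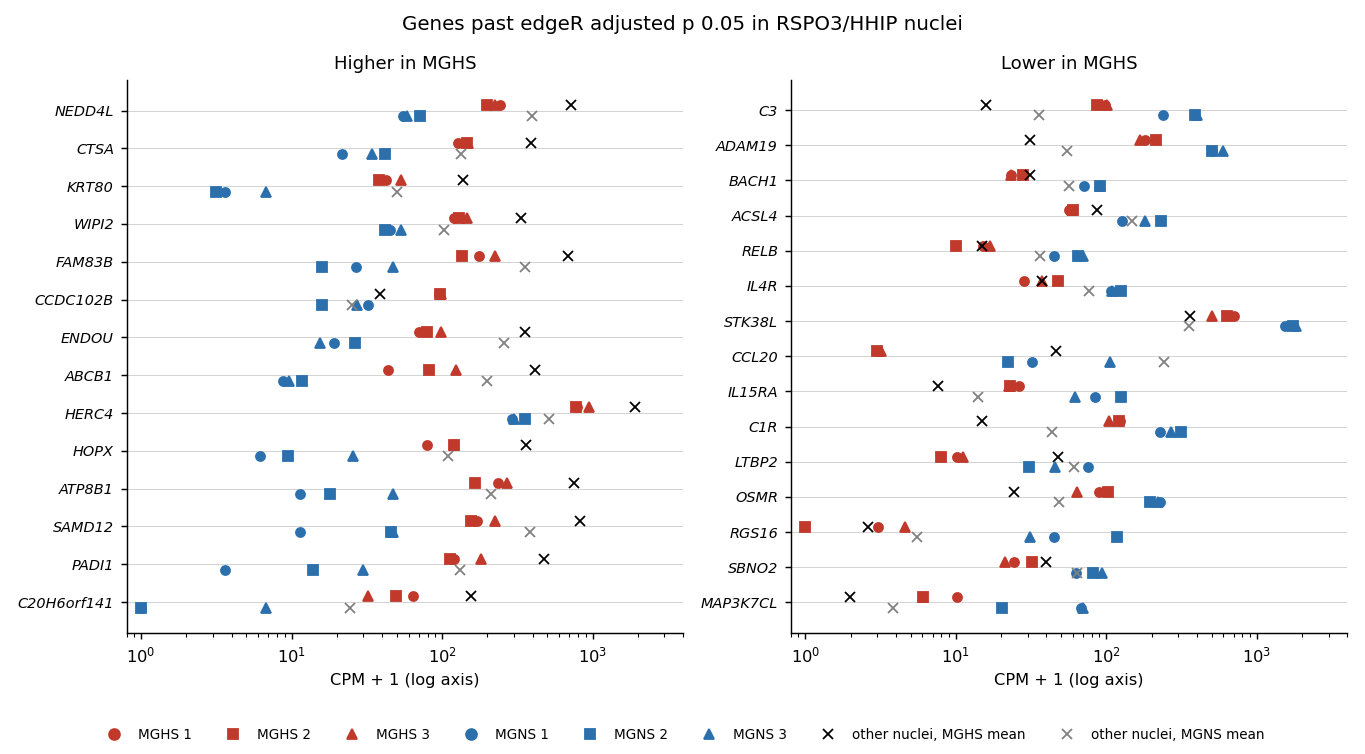
CPM plus 1 on a log axis per animal in RSPO3/HHIP nuclei, MGHS in red and MGNS in blue, for the called genes with a symbol, higher genes on the left and lower genes on the right, with crosses for group means in all other nuclei, MGHS black and MGNS grey. MGHS lies below MGNS for the lower genes and above it for the higher ones, with no overlap between the groups for any of the 33 called genes.

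Contractile and interstitial matrix genes gave no call by edgeR. Of 37 contractile genes edgeR called 0, with 4 lower and 0 higher at an unadjusted p under 0.05, against 12.0% of all tested genes, and a median log2 fold change of -0.13. The counts were 2 higher and 4 lower without MGHS 3, with a median of -0.066, against 10.0% of all genes tested there. DESeq2 called 1 and limma 0. RYR2 had 1022, 1519.5 and 790.4 CPM in MGHS 1 to 3, against 5469, 4659 and 2539.7 CPM in MGNS 1 to 3 (log2 fold change -1.92 ± 0.36 SE, edgeR adjusted p = 0.0575). The RYR2 values of the groups did not overlap, and the threshold was missed. ACTA2 had 1736, 1490.5 and 1670.3 CPM in MGHS 1 to 3, against 1881, 1189 and 1024 CPM in MGNS 1 to 3 (log2 fold change 0.26 ± 0.27 SE, edgeR adjusted p = 0.749), with overlap. ROCK2, a kinase that raises contraction, ACTN1, an alpha actinin, and MYH10, a nonmuscle myosin, had log2 fold changes of -0.67, -0.62 and -1.001 (edgeR adjusted p = 0.188, 0.284 and 0.298).

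Of 35 interstitial matrix genes edgeR called 0, with 9 higher and 3 lower at an unadjusted p under 0.05 (DESeq2 2, limma 0), against 12.0% of all tested genes, and a median log2 fold change of 0.17. Without MGHS 3 the counts were 7 higher and 2 lower. LOX, the enzyme that crosslinks collagen, had 199, 192 and 188 CPM in MGHS 1 to 3, against 88.0, 87.2 and 128 CPM in MGNS 1 to 3 (log2 fold change 0.92 ± 0.21 SE, edgeR adjusted p = 0.11). COL3A1 had 2562, 2649 and 2877 CPM in MGHS 1 to 3, against 1278, 1215 and 1670.5 CPM in MGNS 1 to 3 (log2 fold change 0.96 ± 0.23 SE, edgeR adjusted p = 0.119). COL1A2 and COL5A1, further fibrillar collagen chains, had log2 fold changes of 1.04 and 0.81 (edgeR adjusted p = 0.137 and 0.143). All of these missed the threshold.

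Of the BMP and TGF-beta list 1 gene was called. LTBP2, which binds microfibrils and is related to the latent TGF-beta binding proteins, fell, with 9.11, 7.01 and 10.1 CPM in MGHS 1 to 3, against 75.0, 29.8 and 44.8 CPM in MGNS 1 to 3 (log2 fold change -2.46 ± 0.41 SE, edgeR adjusted p = 0.0412), the only call among 29 tested genes (0.369% of all tested genes were called). At an unadjusted p under 0.05, 2 genes of the list were higher and 5 lower, against 12.0% of all tested genes, and 3 higher and 2 lower without MGHS 3, against 10.0%. Of 21 Wnt genes edgeR called 0, with 1 higher and 3 lower at an unadjusted p under 0.05 (DESeq2 0, limma 0), and 2 higher and 1 lower without MGHS 3. RSPO2 had 59.7, 88.1 and 49.8 CPM in MGHS 1 to 3, against 33.6, 23.4 and 47.6 CPM in MGNS 1 to 3 (log2 fold change 0.88 ± 0.34 SE, edgeR adjusted p = 0.336), and WLS, which escorts Wnt ligands to the surface, 168, 216 and 208 CPM in MGHS 1 to 3, against 313, 240.4 and 414 CPM in MGNS 1 to 3 (log2 fold change -0.71 ± 0.24 SE, edgeR adjusted p = 0.258). Of 10 Hedgehog genes edgeR called 0, with 0 higher and 1 lower at an unadjusted p under 0.05 (DESeq2 0, limma 0) and 1 higher and 0 lower without MGHS 3. PTCH1 had a log2 fold change of 0.54 (adjusted p = 0.481).

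Of 25 growth factor and receptor genes edgeR called 0, with 4 higher and 1 lower at an unadjusted p under 0.05 (DESeq2 1, limma 1), against 12.0% of all tested genes, and 2 higher and 1 lower without MGHS 3, against 10.0%. FGF7, a growth factor for epithelial cells, had 319.9, 346 and 266 CPM in MGHS 1 to 3, against 773, 568 and 969 CPM in MGNS 1 to 3 (log2 fold change -1.31 ± 0.25 SE, edgeR adjusted p = 0.062). VEGFC and VEGFA, growth factors for lymphatic and blood vessels, had log2 fold changes of 1.99 and 1.27 (edgeR adjusted p = 0.274 and 0.29). IGFBP5, a secreted binding protein for IGF ligands, showed 257, 297 and 309.7 CPM in MGHS 1 to 3, against 266, 211 and 136 CPM in MGNS 1 to 3 (log2 fold change 0.51 ± 0.25 SE, edgeR adjusted p = 0.473). None of these passed the threshold.

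In the remaining lists edgeR called 0 genes as well, and their counts at an unadjusted p under 0.05 stand against 12.0% of all tested genes, or 10.0% without MGHS 3. Immediate early genes, which respond within minutes to stimulation, had a median log2 fold change of -0.72 over 13 tested, with 3 lower and 0 higher at an unadjusted p under 0.05 (DESeq2 0, limma 0), with 0 higher and 4 lower without MGHS 3. Basement membrane genes and matrix receptors had 2 lower and 0 higher of 21 (DESeq2 1, limma 0), with 2 higher and 2 lower without MGHS 3. Fibroblast markers had 1 lower and 1 higher of 13 (DESeq2 0, limma 0), with 0 higher and 1 lower without MGHS 3. Pericyte genes had 2 lower and 0 higher of 11 (DESeq2 0, limma 0), with 2 higher and 1 lower without MGHS 3. Genes of neural inputs had 2 lower and 0 higher of 7 (DESeq2 0, limma 0), with 0 higher and 1 lower without MGHS 3. Of 2 cell cycle genes with enough counts, 0 were lower and 0 higher, with and without MGHS 3. SELENOW, a small selenoprotein, had 63.8, 86.1 and 123 CPM in MGHS 1 to 3, against 36.2, 17.0 and 21.7 CPM in MGNS 1 to 3 (log2 fold change 1.898 ± 0.35 SE, edgeR adjusted p = 0.057), and GPX1, a glutathione peroxidase, 49.6, 39.0 and 101 CPM in MGHS 1 to 3, against 18.1, 31.9 and 39.0 CPM in MGNS 1 to 3 (log2 fold change 1.06 ± 0.41 SE, edgeR adjusted p = 0.348). Of 13 selenoprotein genes 3 were higher and 0 lower at an unadjusted p under 0.05 (DESeq2 1, limma 0), with 1 higher and 0 lower without MGHS 3.

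Whether the difference between MGHS and MGNS was itself different in RSPO3/HHIP nuclei was tested as an interaction, with the animal as a term. Against the fibroblast set edgeR called 11 of 11591 genes (0.0949%), all with a smaller or more negative log2 fold change in RSPO3/HHIP nuclei. The count was 21 without MGHS 1, 3 without MGHS 2, and 7 without either MGHS 3 or MGNS 2. ACTA2 had 66.8, 112 and 76.8 CPM in MGHS 1 to 3, against 30.3, 21.5 and 12.6 CPM in MGNS 1 to 3 in the fibroblast set, where its log2 fold change was 2.03, against 0.26 in RSPO3/HHIP nuclei (difference -1.79 ± 0.28 SE, adjusted p = 0.0247). TPM2, a tropomyosin, had 298, 341 and 539.9 CPM in MGHS 1 to 3, against 424, 221 and 249.8 CPM in MGNS 1 to 3 in RSPO3/HHIP nuclei (difference -1.66 ± 0.23 SE, adjusted p = 0.012). IRAG1, a target of the cyclic GMP kinase, differed by -2.37 ± 0.23 SE, adjusted p = 0.000893. For ACTA2, TPM2 and IRAG1 the fibroblast set had log2 fold changes of 2.03, 2.02 and 1.75. ACTA2 averaged 1498 CPM in RSPO3/HHIP nuclei and 53.3 CPM in the fibroblast set. RSPO3/HHIP nuclei averaged 31.6% of the stromal sets in MGHS and 22.4% in MGNS. Whether their RNA, or some of these nuclei, entered the fibroblast set was not tested.

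For STK38L and DHRS3, a retinal reductase, the fold change in the fibroblast set was near 0. STK38L had a log2 fold change of -1.46 in RSPO3/HHIP nuclei and 0.11 in the fibroblast set (difference -1.61 ± 0.196 SE, adjusted p = 0.00624), and DHRS3 -2.35 and 0.088 (difference -2.43 ± 0.31 SE, adjusted p = 0.00832). LHFPL3 had -0.704 in RSPO3/HHIP nuclei and 1.404 in the fibroblast set. Against the pericyte set edgeR called 0 of 9099 genes (0%), where 612 had an unadjusted p under 0.05 and the lowest adjusted p was 0.102, and limma called 2. RYR2 differed by -1.65 ± 0.26 SE there (edgeR adjusted p = 0.102), and EFNA5, a guidance ligand, by 2.15 ± 0.36 SE (edgeR adjusted p = 0.114).

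**Figure D5:**
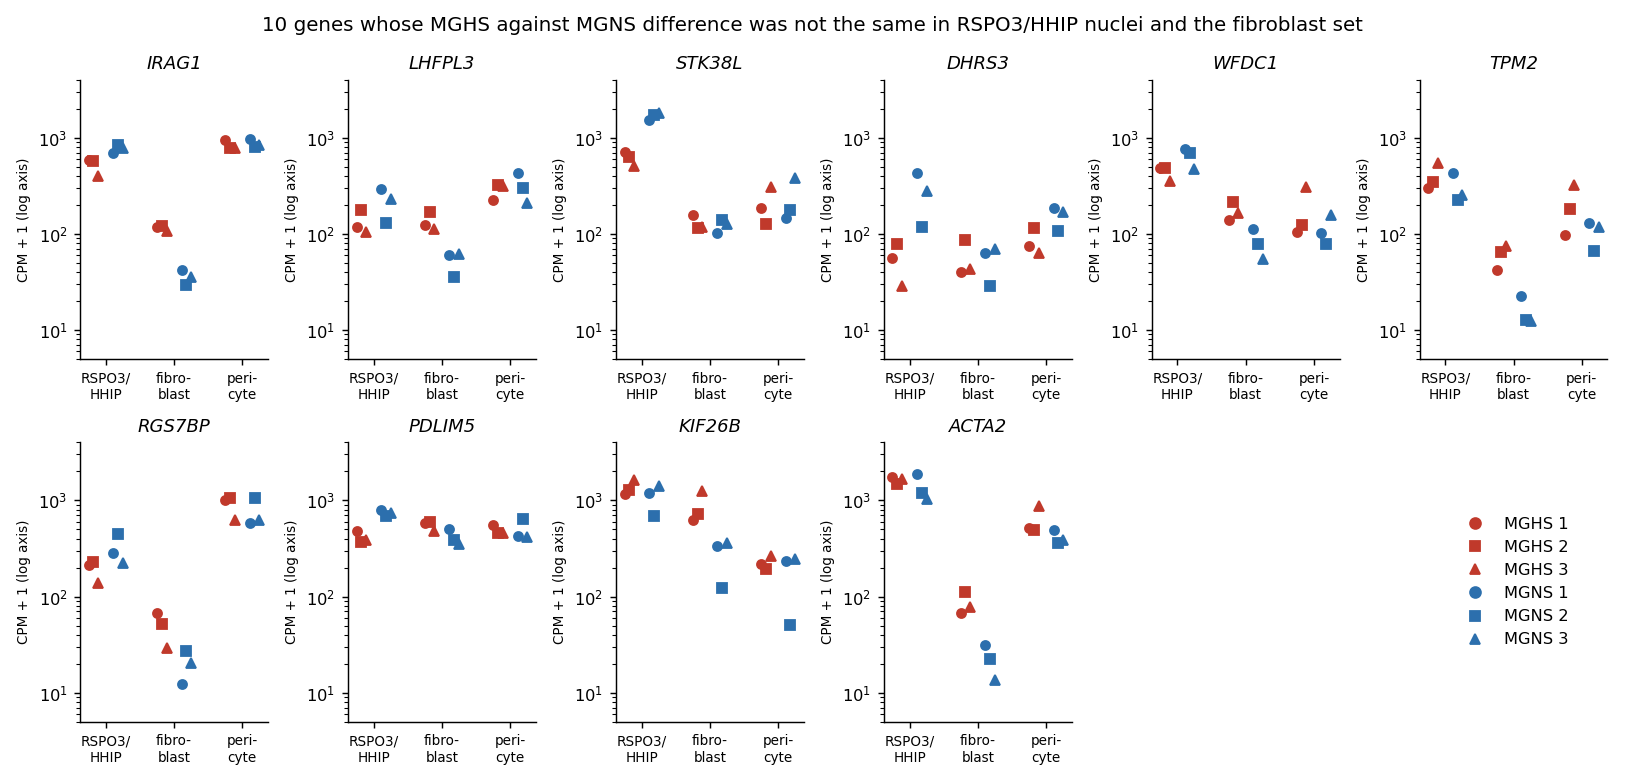
CPM plus 1 on a log axis, 1 point per animal (MGHS red, left; MGNS blue, right), in RSPO3/HHIP nuclei, the fibroblast set and the pericyte set for 10 genes whose difference edgeR called. ACTA2 overlaps between the groups in RSPO3/HHIP nuclei, while in the fibroblast set its MGHS values (66.8 to 112 CPM) lie above its MGNS values (12.6 to 30.3 CPM).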

How the data were processed

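Nuclear RNA of 6 rumen samples was sequenced in droplets, 1 library per lamb. The deposited files hold the authors' raw counts, as UMI counts per gene and barcode. The file headers name Cell Ranger 8.0.0 and the submitters' processing notes 2.1.1, and for the genome build, the annotation and the choice of barcodes nothing is given in the sources used here. All 26741 genes matched sheep NCBI symbols, 10319 of them placeholders. Nuclei were filtered and selected in Python 3.11.15 with scanpy 1.11.5. UMIs of the selected nuclei were summed per animal and tested with edgeR 4.0.16 (quasi-likelihood, TMM, Benjamini-Hochberg over all tested genes, filterByExpr minimum count of 10) in R 4.3.3. DESeq2 1.42.0 and limma 3.58.1 were alternatives. Each SE is the absolute log2 fold change over the root of edgeR's F. Shares were compared by exact permutation. Doublets were kept, and Scrublet calls were removed as an alternative, and in MGNS 1, where it marked 0.0214% of nuclei, the 176 with the highest scores were removed instead. Each replicate is 1 animal, picked at random per the labels.

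The nuclei and the gene lists were chosen with earlier results of these data known. Named genes are all genes of the definition, in each list the most abundant and the smallest p, the 10 called genes with a symbol and smallest p in each direction, the 15 largest ratios over each set, the smallest p of each interaction, and GPX1, SELENOW and IGFBP5. The 15 were taken among genes higher in 6 of 6 animals. Other genes were named after their values were seen. Some genes are not reported here. Equal replicate numbers in the groups did not pair the samples.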

Additional observations from a re-analysis of the deposited data

Results flagged for a closer look

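For 10 genes given here the difference between MGHS and MGNS in RSPO3/HHIP nuclei departed from that in the fibroblast set by the interaction test of edgeR. The log2 differences were -2.37 for IRAG1, -2.13 for LHFPL3, -1.61 for STK38L, -2.43 for DHRS3, -1.72 for WFDC1, -1.66 for TPM2, -2.07 for RGS7BP, -1.34 for PDLIM5, -1.46 for KIF26B and -1.79 for ACTA2. In RSPO3/HHIP nuclei the log2 fold changes of ACTA2 and KIF26B, a kinesin, were 0.26 and 0.302, against 2.03 and 1.69 in the fibroblast set. For WFDC1, a secreted protease inhibitor, and RGS7BP, a G protein regulator, they were -0.55 and -0.71 in RSPO3/HHIP nuclei, against 1.11 and 1.42 in the fibroblast set. PDLIM5, a scaffold at actin filaments, had -0.83 in RSPO3/HHIP nuclei, against 0.46. Of the 11 genes called in this test, 8 missed the threshold without MGHS 2. In the fibroblast set ACTG2 was at 28.6 CPM in MGHS 2 and at 0 to 3.25 CPM in the other libraries. MYH11 was at 73.1 CPM in MGHS 2 and at 4.21 to 22.4 CPM in the others. Whether RSPO3/HHIP nuclei or their RNA entered the fibroblast set was not tested.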

How the results depend on the processing

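The shares of RSPO3/HHIP nuclei kept their direction and did not overlap between the groups under all alternatives run. The differences were 1.42 to 2.57 percentage points of all nuclei and 6.61 to 10.47 points of the stromal sets. With 0 keratinocyte genes allowed the gap was narrow, with 2.28% in MGHS 3 and 2.23% in MGNS 3. By the 7 genes alone the stromal share was 37.31% in MGHS 2 and 37.26% in MGNS 2. That setting dropped the limits for RSPO3/HHIP nuclei only, while the fibroblast and pericyte sets kept theirs, so its stromal shares are not on the same basis as the others. Counts of genes depended on the setting. Where edgeR made 33 calls between MGHS and MGNS, DESeq2 made 158, edgeR without a filter on low counts 488, edgeR with 0 keratinocyte genes allowed 4 (1 higher, 3 lower), with Scrublet doublets removed 10 (2 higher, 8 lower, against 17 and 16), and with nuclei thinned to 1500 UMIs 0. Leaving out 1 animal gave 0 to 36 calls. There were 0 calls when MGHS 3 was left out, 2 when MGHS 1 was, 11 when MGNS 2 was and 18 when MGHS 2 was. The interaction with the fibroblast set gave 145 calls without a filter and 3 to 21 with 1 animal left out, and the interaction with the pericyte set 105 without a filter, 2 by limma and 0 to 3 with 1 animal left out. With 1 CPM added in place of 10, 208 genes were 4-fold over the fibroblast set and 236 over the pericyte set. Of the values of single genes that were named or called, under the alternatives, 806 kept their side of the threshold, 259 missed it where the reported value passed and 33 passed it where the reported value missed. None turned its direction. The cause was not tested, except that thinning and leaving out an animal leave fewer UMIs or samples by construction. The UMIs of MGNS 1, 386571 over 69 nuclei, limit what can be seen in genes of low level.

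With the replicate number as a block edgeR called 50 genes, 32 higher and 18 lower, but samples of the same number did not deviate together (correlations of 0.00889, -0.0375 and 0.0186).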
